A study of Mus musculus with 15 samples.

Results

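The amino acid arm of the integrated stress response was followed through 10 genes in bulk RNA sequencing of mouse retinal pigment epithelium (RPE): *Atf4*, *Ddit3*, *Trib3*, *Asns*, *Psat1*, *Phgdh*, *Psph*, *Shmt2*, *Mthfd2* and *Chac1*. They were chosen by symbol, with earlier results of these data known. They make up 10 of the 20910 genes in the count table of cultured mouse RPE (mRPE) cells. In that of RPE/choroid tissue they are 10 of 25038 genes. All 10 passed the count filter in both tables (at least 5 counts in at least 3 of the libraries fitted). The mRPE cells came from pooled C57/BL6J mice and were immortalised with a lentivirus carrying HPV E6/E7 under puromycin. WT mRPE libraries (n = 4) stood beside libraries of the clones KO22 (n = 3) and KO26 (n = 2), made from Cas9-expressing mRPE cells given a guide RNA to exon 5 of *Prom1*. Each knockout group is a single line, called a clone here, and the labels do not say whether the WT libraries came from Cas9 cells given the scrambled guide. All mRPE cells grew in alpha-MEM with 5% FBS, glutamine, added non-essential amino acids, taurine, hydrocortisone and thyroid hormone. The tissue came from *Prom1*fl/fl mice crossed with RPE65-Cre mice and given tamoxifen by gavage (*Prom1*-KO, n = 3) and from WT mice (n = 3), whose ages and tamoxifen exposure the labels do not give. The labels do not say whether replicates were separate cultures or animals, so the p-values measure the spread between these libraries, which may be technical.

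The integrated stress response is a relay in which kinases sensing amino acid lack, unfolded protein in the ER, viral RNA or mitochondrial and haem stress phosphorylate the initiation factor eIF2. General translation then slows while the *Atf4* mRNA is translated more, so the *Atf4* mRNA level is not a measure of ATF4 protein. ATF4 binds C/EBP-ATF response elements as a heterodimer and raises genes for amino acid synthesis, uptake and tRNA charging. RPE cells are known for an active serine synthesis route, which feeds glycine, glutathione and folate metabolism.

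The composite element was searched for as TGATGNAA on both strands (TTNCATCA on the other) in the window from 250 bases before to 50 after every annotated start of basic protein-coding transcripts (GENCODE vM39, GRCm39). It was present in 4 of the 10 genes, *Ddit3*, *Trib3*, *Asns* and *Chac1*, and in 1418 of 21579 genes (6.57%), where a gene with several starts was searched at each. The 10 genes have 1 to 7 such starts each. The stretches are shown because they hold the letters of this element within the window searched. They are read 5′ to 3′ on the gene's strand, with the matching letters in capitals.
*Ddit3* (chr10:127126350-127126379, plus strand): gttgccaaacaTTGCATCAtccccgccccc
*Trib3*, first start (chr2:152191986-152192015, minus strand): gcaaggctttcTGATGCAActggctgaatt
*Trib3*, a downstream start (chr2:152185948-152185977, minus strand): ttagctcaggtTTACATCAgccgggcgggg
*Asns* (chr6:7693214-7693243, minus strand): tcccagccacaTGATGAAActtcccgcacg
*Chac1* (chr2:119181519-119181548, plus strand): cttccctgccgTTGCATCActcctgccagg
The match begins 46 bases before the first start of *Trib3*, 49 before a downstream annotated start of *Ddit3* and 159 before a downstream annotated start of *Chac1*. With the start counted as position 1, it begins at position 36 of a *Trib3* transcript and at position 32 of an *Asns* transcript. Both have a downstream start, and the match lies inside the sequence of that transcript. Each match is placed from the nearest annotated start only, and its place relative to other starts of the gene is not given. In the other 6 genes these letters were not in the window, and the matches were not tested for ATF4 binding.

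Total counts ranged from 8076188 to 27537863 over the mRPE libraries and from 48154444 to 61766179 over the tissue libraries. The mRPE library names begin with 8995 (replicate 1 of WT, KO22 and KO26) or 9262 (all others), and this prefix was taken as the sequencing batch in the mRPE fits, although the labels do not say that it is one. *Prom1* itself is not analysed here in mRPE cells. In tissue it stood at 48.7, 49.6 and 53.3 CPM (counts scaled to library size, TMM scale) in WT and at 49.9, 48.1 and 35.5 in libraries labelled *Prom1*-KO, so the groups overlapped and the label is used below as a label. Of 11 RPE markers, 8 were not analysed here in mRPE cells (*Rpe65*, *Rlbp1*, *Lrat*, *Tyr*, *Ttr*, *Otx2*, *Krt8* and *Krt18*), and the other 3 summed to 8.19 to 12.8 CPM in WT, 15.5 to 38.7 in KO22 and 5.38 to 9.14 in KO26. The 4 fibroblast markers that were counted summed to 10934 to 13922 CPM in WT mRPE, 4103 to 5864 in KO22 and 15098 to 18038 in KO26, and the 3 endothelial markers to 153 to 235, 1.12 to 4.15 and 56.0 to 73.3 CPM. The part of these shifts in the results below was not tested.

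Levels of the 10 genes can be set against each other only per kilobase of transcript. In WT mRPE cells the mean level was highest for *Atf4* (48.7 CPM per kilobase), followed by *Psat1* (32.1) and *Phgdh* (20.6), and lowest for *Chac1* (2.25) and *Trib3* (1.17). *Asns* (8.42), *Psph* (8.23) and *Mthfd2* (3.44) lay between these. In WT tissue *Atf4* was again the highest (10.7 CPM per kilobase), *Ddit3* came next (6.87), and *Asns* (0.184) and *Trib3* (0.110) were the lowest. Cells and tissue were counted and normalised in separate tables, so the values stand side by side with no test.

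**Figure D1:**
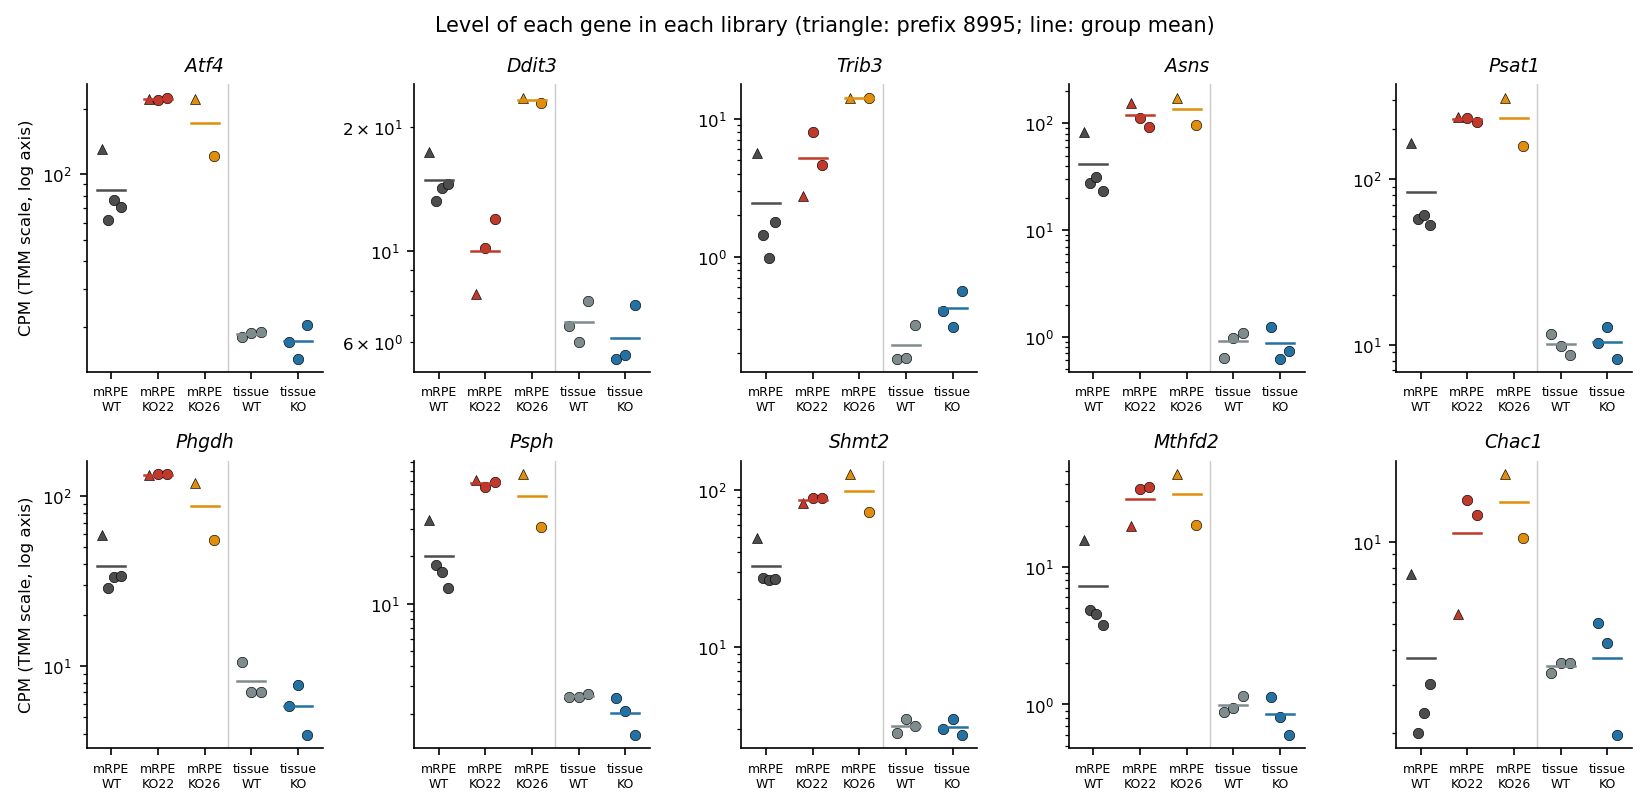
Level of each of the 10 genes in each library, in CPM on the TMM scale (log axis), with a line at the group mean and triangles for libraries of prefix 8995. For 7 genes every KO22 library lies above every WT library, *Ddit3* lies below, and the WT triangle lies above the other WT points in all 10 panels, while tissue groups overlap in 9 panels.

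KO22 was compared with WT to ask how the amino acid response transcripts stood in cells that had lost *Prom1* in culture. Of the 10 genes, 8 rose and none fell with an adjusted p below 0.05 and a log2 fold change beyond 1.2 in size (edgeR quasi-likelihood test with Benjamini-Hochberg adjustment, prefix as a term). Over all 20455 genes tested, 11.4% rose and 13.8% fell by the same limits. The median log2 fold change was 1.58 for the 10 genes and -0.03 for all genes. In 7 genes every KO22 library lay above every WT library, an order that 24.8% of all genes showed. At the adjusted p alone, with no fold limit, 8 were higher and 1 lower, beside 26.9% and 26.1% of all genes.

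*Atf4*, the transcription factor at the head of the arm, measured 130, 61.9, 76.4 and 70.6 CPM in WT replicates 1 to 4 and 221, 218 and 225 CPM in KO22. The KO22 libraries were nearly equal and all lay above WT, among which replicate 1 was highest. The log2 fold change was 1.40 ± 0.17 (SE), with an edgeR adjusted p of 0.000127. *Ddit3* encodes CHOP, a partner and target of ATF4 linked to cell death under prolonged stress, and it went the other way. It measured 17.4, 13.2, 14.2 and 14.6 CPM in WT and 7.87, 10.2 and 11.9 CPM in KO22. Every KO22 library lay below every WT library, as in 25.3% of all genes, and the log2 fold change of -0.57 ± 0.18 passed the adjusted p (0.0252) but not the fold limit. *Trib3*, a pseudokinase that is induced by ATF4 and CHOP and dampens both, measured 5.60, 1.44, 0.98 and 1.79 CPM in WT and 2.77, 8.05 and 4.66 CPM in KO22. The groups overlapped through replicate 1 of each, and the log2 fold change of 1.22 ± 0.55 missed the adjusted p (0.0916).

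*Phgdh*, which commits 3-phosphoglycerate to serine synthesis, measured 59.4, 28.7, 33.6 and 34.1 CPM in WT and 133, 135 and 135 CPM in KO22. The KO22 libraries were again nearly equal, above all WT libraries. Its log2 fold change of 1.81 ± 0.17 had the smallest adjusted p of the 10 genes (2.74e-05). *Psat1*, the aminotransferase of the next step, measured 165, 57.6, 60.8 and 53.0 CPM in WT and 239, 234 and 220 CPM in KO22 (log2 fold change 1.57 ± 0.24). *Psph*, the phosphatase that releases serine, measured 33.9, 17.5, 16.0 and 12.6 CPM in WT and 61.1, 55.5 and 59.7 CPM in KO22 (1.59 ± 0.20). All 3 enzymes of the route therefore rose, with no overlap between the groups, by a fold of 2.98 to 3.50.

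*Shmt2*, the mitochondrial hydroxymethyltransferase that splits serine into glycine and a folate-bound carbon, measured 49.6, 27.4, 26.8 and 27.1 CPM in WT and 82.3, 88.5 and 88.3 CPM in KO22 (log2 fold change 1.42 ± 0.17). *Mthfd2*, the mitochondrial enzyme that oxidises this folate, measured 15.7, 4.87, 4.52 and 3.80 CPM in WT and 19.7, 36.6 and 38.0 CPM in KO22. Replicate 1 of KO22 was the lowest of its group and replicate 1 of WT the highest of its own, yet the groups did not overlap. The log2 fold change of 2.28 ± 0.44 was the largest of the 10 genes in this comparison and also had a wide error. *Asns*, which makes asparagine from aspartate and glutamine, measured 83.2, 27.4, 31.3 and 23.2 CPM in WT and 156, 112 and 92.6 CPM in KO22 (1.61 ± 0.20). *Chac1*, which cleaves glutathione, measured 7.63, 1.99, 2.36 and 3.01 CPM in WT and 5.45, 14.2 and 12.6 CPM in KO22. Its groups overlapped through replicate 1 of each. The log2 fold change of 1.59 ± 0.48 passed both limits (adjusted p = 0.0195), but lost the adjusted p when WT replicate 2, 3 or 4, or KO22 replicate 2 or 3, was left out (adjusted p of 0.0537 to 0.0774).

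**Figure D2:**
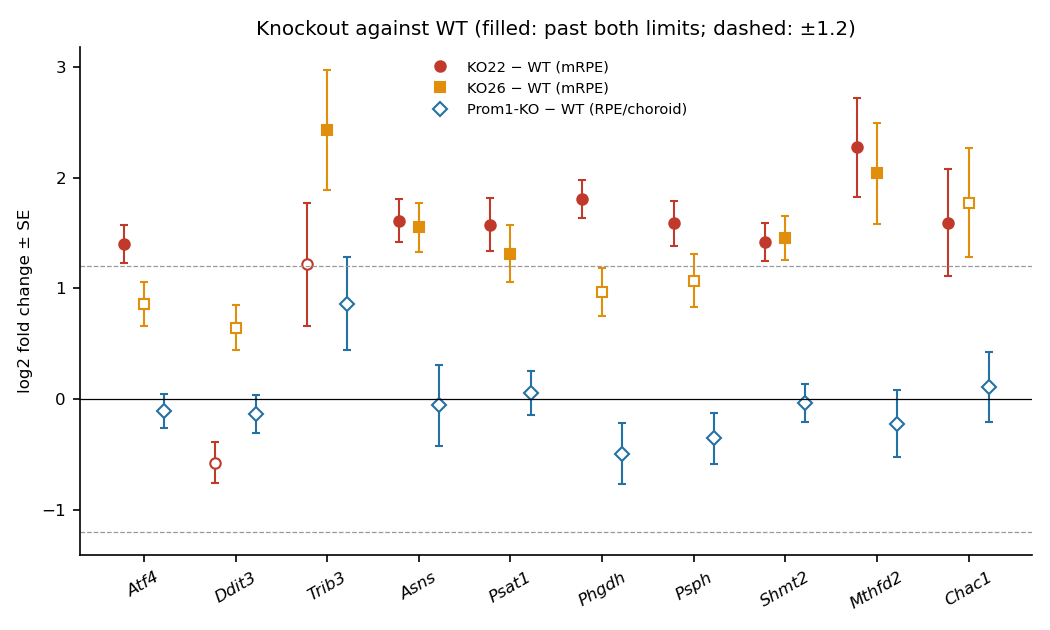
Log2 fold change with its standard error for each gene in KO22 against WT, KO26 against WT (mRPE cells) and *Prom1*-KO against WT (RPE/choroid), with filled symbols past both limits and dashed lines at the fold limit of 1.2. In mRPE cells 8 KO22 and 5 KO26 symbols are filled, and no tissue symbol is.

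Whole chromosomes differed in their median between KO22 and WT, from -0.54 on chromosome 10 to 0.37 on chromosome 15 among the chromosomes that carry the 10 genes. *Ddit3* and *Shmt2* both lie on chromosome 10. The log2 fold change of *Ddit3* differed from that chromosome's median by -0.03, and that of *Shmt2* was 1.96 above it. *Atf4* lies on chromosome 15 and was 1.04 above its median. Apart from *Ddit3*, the genes lay above the median of their chromosome by 1.04 for *Atf4* to 2.73 for *Mthfd2*. The share of all genes lying that far above their chromosome's median is not given here. The chromosome medians come from the same libraries as the genes, and their part in the results was not tested.

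**Figure D3:**
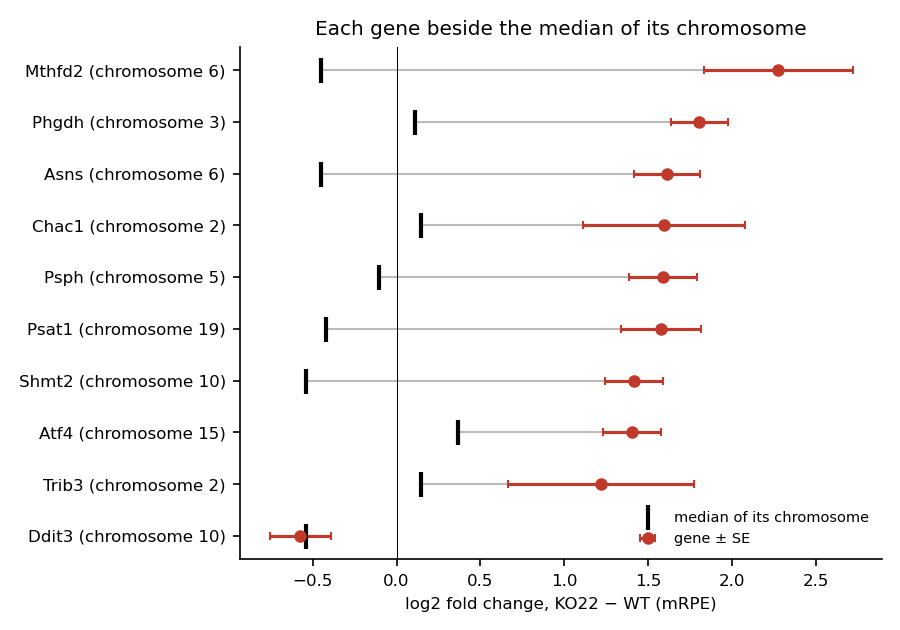
Log2 fold change of KO22 against WT with its standard error for each gene (points) beside the median over all tested genes of its chromosome (bars). *Ddit3* sits on the median of chromosome 10 (-0.54), and the other 9 genes sit 1.04 to 2.73 above theirs.

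The libraries of the 2 prefixes differed in these genes within a genotype. WT replicate 1 (prefix 8995) lay above all 3 WT libraries of prefix 9262 in 10 of 10 genes, by a ratio to their mean of 1.24 for *Ddit3* to 3.99 for *Trib3* (median 2.55). Of all genes, 36.5% showed this order and 35.7% the opposite one. In KO26 the 8995 library lay above the 9262 library in 9 of 10 genes (50.1% of all genes), with ratios of 0.985 to 2.36. In KO22 it lay above both 9262 libraries in 3 genes and below both in 6 (35.7% and 47.4% of all genes), with ratios of 0.407 to 1.52. In the fit over 9 libraries the prefix term passed an adjusted p of 0.05 in 5 of the 10 genes, each higher in 8995 (*Atf4*, *Asns*, *Psat1*, *Phgdh* and *Psph*, log2 0.60 to 1.09), beside 4.31% of all genes higher and 4.51% lower by that limit. None passed the fold limit as well, where 0.661% of all genes were higher and 1.91% lower.

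The KO22 difference was therefore also taken within each prefix, from the means of log2(CPM + 0.5). Within 9262 (3 WT and 2 KO22 libraries), 9 of 10 genes were higher in KO22, with folds of 0.795 for *Ddit3* to 7.76 for *Mthfd2*. Within 8995 (1 WT and 1 KO22 library, with no replicate check), 7 of 10 were higher, with folds of 0.469 for *Ddit3* to 2.24 for *Phgdh*. *Trib3* and *Chac1* changed direction, at 0.535-fold and 0.732-fold in 8995 against 3.54-fold and 4.74-fold in 9262. The share of all genes higher in KO22 within each prefix is not given here, so these counts have no background.

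The difference between the prefixes in the KO22 effect was tested as an interaction, and the value passed an adjusted p of 0.05 in all 10 genes, each with the lower KO22 minus WT value in 8995. For *Ddit3*, which was lower in KO22, this is the larger difference in 8995. Of all genes, 26.6% passed in either direction and 17.2% with the lower value in 8995. The interaction was -0.79 ± 0.26 (log2) for *Ddit3*, -0.90 ± 0.18 for *Atf4*, -2.75 ± 0.24 for *Mthfd2*, -2.93 ± 0.35 for *Chac1* and -3.18 ± 0.49 for *Trib3*. DESeq2 called 9 of the 10, with an adjusted p of 0.147 for *Ddit3*. The 8995 side of this test is 1 WT and 1 KO22 library, the same for all 10 genes, so the spread comes from the 9262 libraries alone and the 8995 libraries are assumed to vary like them.

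**Figure D4:**
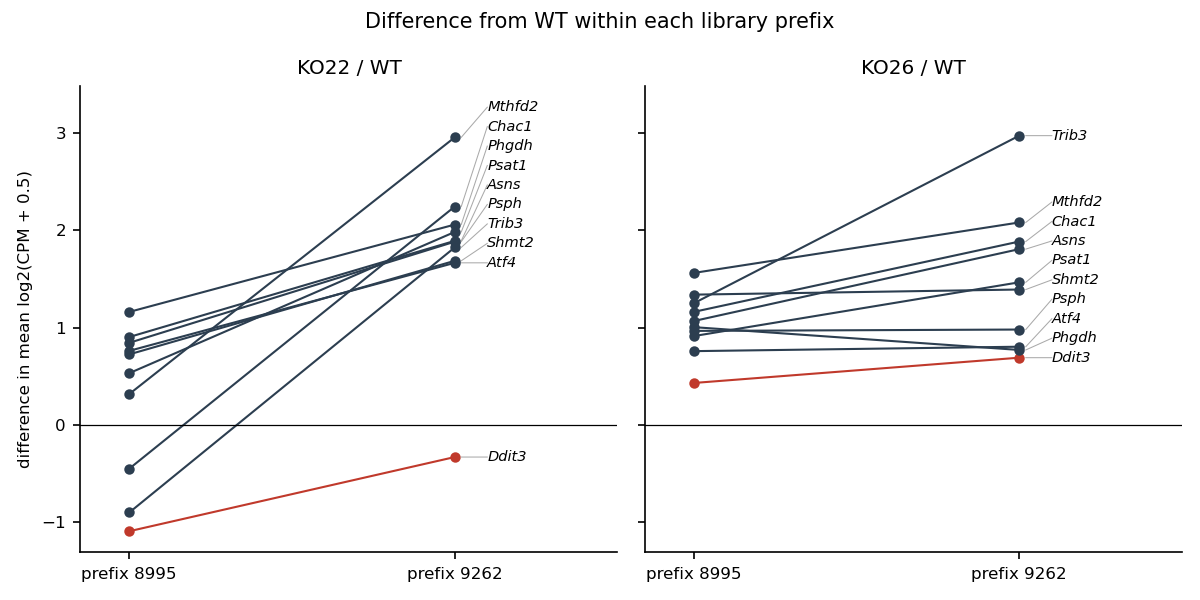
Difference from WT in mean log2(CPM + 0.5) within libraries of prefix 8995 and of prefix 9262, for KO22 (left) and KO26 (right), 1 line per gene with *Ddit3* in red. In KO22 every line climbs from 8995 to 9262, and in KO26 all 20 points lie above zero.

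KO26, the second clone, was tested against the same 4 WT libraries, so its values share their controls with those of KO22. The study removed both KO26 libraries as outliers, and they are kept here as labelled. Of the 10 genes, 5 rose past both limits (*Trib3*, *Asns*, *Psat1*, *Shmt2* and *Mthfd2*), and none fell, beside 1.21% and 0.719% of the 20737 genes tested. At the adjusted p alone 8 of 10 rose, adding *Atf4*, *Phgdh* and *Psph*, beside 2.36% of all genes higher and 1.13% lower. The median log2 fold change was 1.39 for the 10 genes and 0.03 for all genes, and all 10 values were positive. In 6 genes both KO26 libraries lay above every WT library, an order shown by 11.9% of all genes.

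Of the regulators, *Atf4* measured 220 CPM in KO26 replicate 1 and 121 CPM in replicate 2, which overlapped WT replicate 1. The log2 fold change was 0.86 ± 0.20 (edgeR adjusted p = 0.0444). *Ddit3* measured 23.6 and 22.9 CPM, above every WT library, with a log2 fold change of 0.64 ± 0.20 that missed the adjusted p (0.113). *Trib3* measured 14.0 and 14.2 CPM, also above every WT library, with 2.43 ± 0.54 (adjusted p = 0.0376). In this clone *Ddit3* and *Trib3* gave nearly equal values in both libraries, whereas *Atf4* differed 1.81-fold between them. The other members differed as *Atf4* did, from 1.72-fold for *Chac1* to 2.36-fold for *Mthfd2*, each higher in replicate 1.

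Among the serine enzymes, *Psat1* measured 311 and 158 CPM, *Phgdh* 120 and 54.9 CPM, and *Psph* 66.6 and 30.5 CPM. In each of these, replicate 2 lay inside the WT range. The log2 fold changes were 1.31 ± 0.26, 0.97 ± 0.22 and 1.07 ± 0.24 (adjusted p of 0.0224, 0.0391 and 0.0376). *Shmt2* measured 126 and 71.9 CPM (1.46 ± 0.20, adjusted p = 0.00800) and *Mthfd2* 47.4 and 20.1 CPM (2.04 ± 0.46, adjusted p = 0.0391). *Asns* measured 175 and 96.0 CPM (1.55 ± 0.22, adjusted p = 0.00859). These 3 did not overlap with WT. *Chac1*, at 17.7 and 10.3 CPM, also stood above every WT library, but its log2 fold change of 1.78 ± 0.49 missed the adjusted p (0.0784).

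Within each prefix all 10 genes were higher in KO26 than in WT, with folds of 1.35 (*Ddit3*) to 2.95 (*Mthfd2*) in 8995 and 1.61 (*Ddit3*) to 7.85 (*Trib3*) in 9262. Each prefix holds 1 KO26 library, and the share of all genes higher within a prefix is not given here. The count of 5 rested on single libraries. It was 1 without KO26 replicate 1, 3 without replicate 2, 2 without any one of WT replicates 2, 3 and 4, and 7 without WT replicate 1. It was 1 when the prefix was not a term.

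The clones themselves were compared in the same fit over 9 libraries. *Ddit3* was lower in KO22 than in KO26 by both limits, with a log2 difference of -1.22 ± 0.22 (adjusted p = 0.00178), where 10.7% of all genes were lower and 7.56% higher. No KO22 library reached either KO26 library. The call left when KO22 replicate 1 or KO26 replicate 1 was left out, at -0.96 and -1.19, since the value then fell inside the fold limit while the adjusted p stayed under 0.05. *Phgdh* was higher in KO22 at the adjusted p alone, by 0.85 ± 0.24 (adjusted p = 0.0196), beside 16.3% of all genes. Each KO22 library held less *Trib3* than either KO26 library, an order shown by 24.6% of all genes, but the log2 difference of -1.28 ± 0.58 missed the adjusted p (0.117). For *Asns*, *Shmt2* and *Chac1* the difference was 0.06 ± 0.24, -0.03 ± 0.22 and -0.14 ± 0.54, so that for *Chac1* the error left room for a sizeable difference either way. These values average opposite directions in the prefixes. From the means of log2(CPM + 0.5), they were -0.16, -0.61 and -1.61 within 8995 (replicate 1 of each clone). Within 9262 they were 0.08, 0.30 and 0.36. The median fold of the 10 genes, KO22 over KO26, was 0.711 within 8995 and 1.36 within 9262.

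The genes around the 10 members were read from lists of the stress response and of the pathways it feeds, 98 genes tested in mRPE cells beside the members. The lists were chosen with earlier results of these data known, so their counts are a description and not independent support. In KO22, 33 of the 98 rose and 2 fell past both limits, and 82 had a positive log2 fold change (median 0.75, against -0.03 over all genes). Of all genes tested 11.4% rose and 13.8% fell, and the counts below are to be read against these shares. Among 9 amino acid transporters 4 rose and 1 fell. *Slc7a11*, the cystine and glutamate exchanger, rose by 5.73 ± 0.12 on the log2 scale, from 3.17 ± 1.74 CPM (SD, n = 4) in WT to 181 ± 92.2 CPM (n = 3). *Slc7a5*, the large neutral amino acid carrier, rose by 2.00 ± 0.28 and *Slc7a1*, a cationic amino acid carrier, by 1.63 ± 0.17, whereas the related *Slc7a3* fell by 1.50 ± 0.20. Among 8 further amino acid and folate enzymes 4 rose, led by *Cth*, which makes cysteine (4.69 ± 0.38), and *Bcat1*, which transaminates branched-chain amino acids (2.33 ± 0.31).

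Of 20 cytosolic aminoacyl-tRNA synthetases, which charge tRNA with amino acids, 8 rose in KO22, none fell and 19 had a positive log2 fold change (median 1.12). *Aars1* (2.11 ± 0.20), *Farsa* (1.93 ± 0.20), *Kars1* (1.86 ± 0.14) and *Tars1* (1.75 ± 0.15) rose most. Of 11 partner and regulator genes 3 rose, *Atf3* (3.65 ± 0.33), *Cebpb* (1.61 ± 0.37) and the translation repressor *Eif4ebp1* (1.34 ± 0.11), and *Stc2*, a secreted glycoprotein, fell by 3.33 ± 0.37. At the adjusted p alone 5 of these 11 were higher and 3 lower, beside 26.9% and 26.1% of all genes. Of 14 other serine, glycine and folate genes 4 rose, among them *Tyms*, the thymidylate synthase (1.96 ± 0.18), *Shmt1*, the cytosolic counterpart of *Shmt2* (1.87 ± 0.15), and *Gcsh*, of the glycine cleavage system (1.66 ± 0.25). Of 17 ER chaperone and XBP1/ATF6 genes 6 rose, among them *Creld2* (1.78 ± 0.18) and *Manf* (1.64 ± 0.17), and of 5 mitochondrial chaperones and proteases 3 rose, among them *Hspd1* (1.84 ± 0.21). Of 14 genes for eIF2 kinases and their control 1 rose, *Eif2b3*, a subunit of the exchange factor eIF2B (1.45 ± 0.17).

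In KO26, 8 of the 98 genes rose and none fell past both limits, beside 1.21% and 0.719% of all genes, and 83 had a positive log2 fold change (median 0.48, against 0.03 over all genes). Of the further amino acid and folate enzymes 4 of 8 rose. These were the folate enzymes *Aldh1l2* (2.05 ± 0.31) and *Mthfd1l* (1.32 ± 0.19), and *Pycr1* (1.88 ± 0.36) and *Bcat1* (1.69 ± 0.32). The transporters *Slc7a11* (2.27 ± 0.16) and *Slc7a5* (1.48 ± 0.31), the regulator *Atf3* (2.13 ± 0.41) and the synthetase *Aars1* (1.25 ± 0.22) also rose. At the adjusted p alone 5 of 8 enzymes, 5 of 9 transporters, 4 of 11 regulators and 10 of 20 synthetases were higher, beside 2.36% of all genes. Of the 17 ER chaperone genes, the 14 other serine, glycine and folate genes, the 14 eIF2 genes and the 5 mitochondrial genes, none passed both limits with edgeR. At the adjusted p alone 1, 1, 1 and 2 were higher. These were the ER gene *Edem1* (0.61 ± 0.13), the thymidylate synthase *Tyms* (1.05 ± 0.25), the double-stranded RNA kinase *Eif2ak2* (0.89 ± 0.21), the mitochondrial protease *Lonp1* (1.08 ± 0.16) and the mitochondrial chaperone *Hspa9* (0.86 ± 0.14). Between the clones 12 of the 98 genes were higher in KO22 and 3 lower, beside 7.56% and 10.7% of all genes. Among those higher, the log2 difference (KO22 minus KO26) was 3.46 ± 0.18 for *Slc7a11* and 3.13 ± 0.50 for *Cth*. The 3 lower genes were *Stc2* (-3.66 ± 0.40), the regulator *Nupr1* (-1.63 ± 0.21) and *Pycr1* (-1.57 ± 0.39).

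The 3 genes whose centred log2 CPM over the 9 mRPE libraries lay closest to that of *Atf4* were *Mfap2*, a microfibril protein (root mean square difference 0.0654), *Nup107*, a nuclear pore subunit (0.143), and *Slc16a1*, a lactate carrier (0.149). *Mfap2* measured 11.5, 5.00, 5.99 and 6.03 CPM in WT, 21.0, 19.2 and 21.0 CPM in KO22, and 21.0 and 10.3 CPM in KO26. Of the members, *Phgdh* came nearest, at rank 23 of 20737 genes (0.187), then *Psph* at rank 41 and *Shmt2* at rank 126. *Ddit3* was at rank 13107 and *Trib3* at rank 11447. The measure is a description over 9 libraries that share prefixes and clones.

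In RPE/choroid, the tissue comparison asked whether the same genes differed between libraries labelled *Prom1*-KO and WT. None of the 10 genes passed an adjusted p of 0.05 in either direction with edgeR, none had an unadjusted p under 0.05, and DESeq2 called none. Over all 24926 genes, 0% rose and 0.189% fell past both limits, and 2068 had an unadjusted p under 0.05. The log2 fold changes ran from -0.49 ± 0.28 (*Phgdh*) to 0.86 ± 0.42 (*Trib3*), with adjusted p of 0.667 to 0.984 and a median of -0.08 beside 0.01 over all genes. Fewer cells of a type and less RNA per cell cannot be told apart in such bulk samples.

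*Atf4* measured 18.1, 18.8 and 19.1 CPM in WT tissue and 17.1, 14.3 and 20.5 CPM in *Prom1*-KO. *Ddit3* measured 6.59, 6.02 and 7.56 CPM in WT and 5.47, 5.60 and 7.40 CPM in *Prom1*-KO. For both genes the *Prom1*-KO range reached across the WT range or into it, and the log2 fold changes were -0.11 ± 0.15 and -0.13 ± 0.17. *Trib3*, at 0.18, 0.19 and 0.32 CPM in WT and 0.41, 0.31 and 0.56 CPM in *Prom1*-KO, rested on 11 to 22 counts per library.

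*Phgdh* measured 10.6, 7.04 and 7.05 CPM in WT tissue and 5.82, 7.71 and 3.91 CPM in *Prom1*-KO. *Psph* measured 2.54, 2.55 and 2.67 CPM in WT and 2.50, 2.07 and 1.46 CPM in *Prom1*-KO. *Psph* was the only member of the 10 with no overlap between the groups, an order that 7.89% of all genes showed in this direction and 6.71% in the other, and its log2 fold change was -0.35 ± 0.23 (adjusted p = 0.750). *Psat1* measured 11.7, 9.88 and 8.67 CPM in WT and 10.2, 12.9 and 8.23 CPM in *Prom1*-KO, and its groups overlapped.

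*Asns* and *Mthfd2* stood near 1 CPM in tissue, from 0.62 to 1.24 CPM and from 0.60 to 1.15 CPM over all 6 libraries, and *Shmt2* from 2.72 to 3.47 CPM. *Chac1* measured 3.30, 3.59 and 3.60 CPM in WT and 5.03, 4.26 and 1.96 CPM in *Prom1*-KO, so that the *Prom1*-KO libraries lay on both sides of WT. Its lowest value was in replicate 3, the library in which 84.2% of counts were mitochondrial (64.9% to 71.3% in the other 5 tissue libraries). That replicate was also lowest of its group for *Phgdh*, *Psph*, *Psat1*, *Shmt2* and *Mthfd2*, and the highest for *Atf4*, *Ddit3* and *Trib3*. Of the 100 pathway genes tested in tissue none passed the adjusted p, 50 were positive, and their median was 0.00. The smallest adjusted p belonged to *Aldh18a1*, of proline synthesis (log2 fold change -0.69 ± 0.21, adjusted p = 0.393), and the stress hormone gene *Gdf15* (-1.35 ± 0.43, adjusted p = 0.430).

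The summed RPE markers and the summed endothelial markers differed between the groups of tissue libraries. The 11 RPE markers summed to 1190 to 1902 CPM in WT and to 381 to 536 CPM in *Prom1*-KO, with no overlap. Of these markers 2 fell past both limits, beside 0.189% of all genes. Their median log2 fold change was -0.67, the lowest was -6.06 and 1 was positive. The 8 photoreceptor markers summed to 39.7 to 1133 CPM in WT and to 19.9 to 555 CPM in *Prom1*-KO. The 6 muscle markers summed to 259.7 to 875 CPM and to 55.0 to 728 CPM, and both of these sums overlapped between the groups. The 6 endothelial markers summed to 83.3 to 167 CPM in WT and to 57.4 to 76.4 CPM in *Prom1*-KO, again with no overlap. None of these 6 passed both limits, none was positive, and their median log2 fold change was -0.76. The part of these differences in the values of the 10 genes was not tested. With library totals alone as scaling, the median log2 fold change of all genes in tissue was -0.46, and no member passed the test then either.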

How the data were processed

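RNA sequencing of 9 mRPE and 6 RPE/choroid libraries was analysed. The authors trimmed reads with Trim Galore 0.6.7, aligned them to mm39 with STAR, and deposited raw counts per gene (whole numbers, not normalized). The submitters' notes name DESeq2 1.42.0. The labels name an NEB stranded mRNA kit and the study's methods a TruSeq stranded one. The authors' normalized tables were not used. Groups came from the labels, and 0 columns lacked a sample.

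Counts were tested with edgeR 4.0.16 in R 4.3.3 by its quasi-likelihood F test (TMM, at least 5 counts in at least 3 fitted libraries, Benjamini-Hochberg adjustment over all genes tested). A gene was called below an adjusted p of 0.05 and beyond 1.2 in log2 fold change, the limits of the study. KO22 was compared with WT over the 7 libraries that the study kept, and KO26 in 1 fit over all 9, with the library prefix as a term. Standard errors are the log2 fold change over the root of the F statistic. CPM are on the TMM scale, and per-kilobase values use the canonical transcript of GENCODE vM39. Mean CPM are given ± SD. Total counts were 8076188 to 27537863 (mRPE) and 48154444 to 61766179 (tissue). They include mitochondrial counts, 64.9% to 84.2% in tissue, so the totals alone do not set the counting precision of these genes. *Prom1*-KO replicate 3 had the largest tissue total, a TMM factor of 0.488 and 617 *Atf4* counts, the fewest of the tissue libraries. *Trib3* had as few as 10 counts in 1 mRPE library.

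The members and lists were chosen with earlier results of these data known. Of each list, at most the 4 genes with the largest absolute change past both limits were named, or the 2 smallest adjusted p where none passed (not all of these are printed); all 10 members, *Prom1* and the 3 genes closest to *Atf4* were named as well. Alternatives were DESeq2's size factors, library totals, DESeq2's test, no count filter, no fold limit, no prefix term, other sets of libraries in the fit, and each library left out. The fits on prefix 9262 alone, without mitochondrial genes, and the comparison of prefixes were chosen after seeing the data. The fits were tested on simulated data.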

Additional observations from a re-analysis of the deposited data

Results flagged for a closer look

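In WT mRPE cells, replicate 1 (prefix 8995) stood apart from the other 3 libraries in 4 of the 10 genes by Dixon's test of the extreme value. Its gap to the nearest library, over the range of the group, was 0.864 for *Asns*, 0.93 for *Psat1*, 0.973 for *Shmt2* and 0.911 for *Mthfd2*. Chance alone flags about 1 in 20 groups of exchangeable libraries, but replicate 1 is the only WT library of prefix 8995. Over all genes it lay above the other WT libraries in 36.5% and below them in 35.7%. The share of all genes that Dixon's test flags is not given here, and the 10 groups tested share the same libraries.

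The clones differed in *Ddit3*, at -1.22 (log2, KO22 minus KO26), and in *Phgdh*, at 0.846, by edgeR's test of the difference itself at an adjusted p under 0.05.

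The KO22 minus WT value was lower in prefix 8995 than in 9262 in all 10 genes, at an adjusted p under 0.05 in the interaction test. The log2 effect in 8995 minus that in 9262 was -0.903 for *Atf4*, -0.786 for *Ddit3*, -3.18 for *Trib3*, -1.01 for *Asns*, -1.46 for *Psat1*, -0.902 for *Phgdh*, -1.05 for *Psph*, -0.969 for *Shmt2*, -2.75 for *Mthfd2* and -2.93 for *Chac1*. All 10 rest on the same 2 libraries of prefix 8995 (1 WT and 1 KO22), whose spread is assumed to be that of the 9262 libraries.

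The 3 *Prom1*-KO tissue libraries all held less *Psph* than any WT tissue library (log2 fold change -0.354), whereas all 3 KO22 libraries held more than any WT mRPE library. The difference between tissue and cells was not tested.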

How the results depend on the processing

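In KO22 the count of members higher was 8 to 9 under every other scaling, test, filter and set of libraries except that it ranged from 7 to 9 with 1 library left out, and the count lower was 0 throughout (0 to 0 with 1 library left out) except 1 without a fold limit. In KO26 the count higher was 5 or 6 under other scalings, tests, filters and sets of libraries, 8 without a fold limit, 1 without a prefix term and 1 to 7 with 1 library left out, and the count lower stayed at 0. For KO22 against KO26 the count higher was 1 without a fold limit and 1 on libraries of prefix 9262 alone (0 to 1 with 1 left out), and the count lower was 0 on those libraries (0 to 2 with 1 left out). In tissue both counts were 0 under each alternative. Of single members' values, 158 of 170 in KO22 kept their direction and, where a test was run, their side of the limits. The KO22 values within prefix 8995, with 1 library per group, had no test and were compared by direction only. They ran from -1.09 for *Ddit3* to 1.16 for *Phgdh*, inside the fold limit of 1.2. Direction and side were kept by 111 of 140 values in KO26, 102 of 120 between the clones and 108 of 120 in tissue.

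Direction turned within prefix 8995 for *Trib3* (-0.90) and *Chac1* (-0.45) in KO22. Between the clones it turned without the prefix term for *Asns* (-0.17), *Psat1* (-0.025) and *Mthfd2* (-0.11), and on prefix 9262 alone for *Shmt2* (0.28) and *Chac1* (0.36). With 1 library left out, values there crossed zero for *Shmt2* (-0.23 to 0.32), *Chac1* (-0.44 to 0.67), *Asns* (-0.089 to 0.32) and *Mthfd2* (-0.018 to 1.09). In tissue it turned with library totals for *Psat1* (-0.35) and *Chac1* (-0.23), and with 1 library left out values crossed zero for *Atf4* (-0.26 to 0.011), *Asns* (-0.43 to 0.14), *Psat1* (-0.13 to 0.18), *Shmt2* (-0.14 to 0.041) and *Chac1* (-0.16 to 0.40). None of these turned values was a call in the fit reported except *Chac1* in KO22, and the cause was not tested. Over all genes DESeq2 called 84 higher and 189 lower in tissue, against 0 and 47 with edgeR, and 269 lower in KO26 against 149. No paired analysis was possible because the labels give no replicate numbers. Where a library left out leaves 1 in a group, that library is assumed to vary like the others. Depth limits *Trib3*, *Asns* and *Mthfd2* in tissue.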
